A study of Mus musculus with 9 samples.

Results

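Matrix metalloproteinases (MMPs) and their tissue inhibitors (TIMPs) were followed in cultured mouse lung cells with and without the transcription factor Nrf2. The set comprised 10 genes: Mmp2, Mmp3, Mmp8, Mmp9, Mmp12, Mmp13, Mmp14, Timp1, Timp2 and Timp3. Every probe set whose annotation named 1 of these genes and no other was taken, which gave 22 of the 45037 probe sets analysed, 11 for MMPs and 11 for TIMPs. A filter on dim probe sets, applied to the whole array at the median of the mean log2 signal, kept 21 of the 22. The probe set left out, 1437081_at for Timp2, read 4.6 to 48 and lay at or below the bacterial control probe sets on every array.

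The study compared cells called type II cells, the surfactant-making epithelial cells of the alveolus, from Nrf2+/+ and Nrf2-/- mice. RNA was read on 9 Affymetrix arrays, 3 from wild-type cells, 3 from cells without Nrf2 and 3 from cells without Nrf2 that the labels call supplemented with GSH (reduced glutathione, a tripeptide antioxidant). All groups were given as ICR10 strain, female, 2 months old, and all cells had been through macrophage removal on IgG plates and fibroblast removal by adherence, then 5 days on plates coated with fibronectin and collagen in medium with keratinocyte growth factor. No source used here gives the dose or time of GSH, and all 9 arrays carry no treatment in the treatment field.

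Signals are the deposited linear intensities, taken as scaled to a common mean, and are in arbitrary units. They are compared between arrays for 1 probe set and never between probe sets. A called change is a Benjamini-Hochberg adjusted p under 0.05 over 22519 kept probe sets in limma, fitted with a term for each group and for the set, a number in the sample titles of unstated meaning (2 arrays of set 2 and 1 of set 3 in each group). The labels give n = 1 for each array without saying what it counts, so p-values measure only array-to-array spread within groups, possibly technical. The deleted gene, Nfe2l2 (Nrf2), read 3879 to 4173 in wild type, 28.7 to 77.4 in knockout and 33.3 to 46.2 in knockout with GSH. The Y-linked gene Eif2s3y read 701 to 936 on the wild-type arrays, against 1.5 to 24.4 in knockout and 1.9 to 16.2 with GSH, and the female-specific transcript Xist read 132 to 188 in wild type against 2444 to 4643 and 2694 to 4777. The wild-type arrays therefore go against their label of female in these genes, so every comparison with wild type may also be one between sexes, and Nrf2 and sex cannot be told apart in it. Sftpc, the defining surfactant protein gene of type II cells, lay at or below the control probe sets on 3 of 3 wild-type arrays (mean 37.3) and was dim in knockout (89.1) and with GSH (108). Another surfactant protein gene, Sftpa1, was also under the filter (means 62.2, 82.9 and 92.9 in wild type, knockout and GSH). The other 8 of the list's 10 genes on the array were kept. Each of the 8 was above the control probe sets on every array. The filter itself, at 116, lies above the control levels of 43.4 to 82.9. Among the 8, Sftpb had means of 338, 241 and 356, and Sftpd 448, 218 and 349. The phospholipid transporter Abca3 had 914, 957 and 1522, and the surfactant lipid enzyme Lpcat1 2175, 2020 and 2777.

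MMPs are zinc-dependent proteases, secreted or anchored in the membrane, that cut collagens, elastin, laminins and other matrix proteins, and they are made as inactive precursors. TIMPs bind the active site of MMPs, and the balance of protease and inhibitor bears on matrix turnover in the alveolar wall, where several MMPs are known for their part in emphysema, fibrosis and epithelial repair. The members differ in role: Mmp8 and Mmp13 are collagenases of fibrillar collagen, Mmp12 is the macrophage elastase, Mmp2 and Mmp9 are gelatinases, Mmp3 is a stromelysin that cuts many matrix proteins and activates other MMP precursors, and Mmp14 is a membrane-bound protease that activates pro-Mmp2 together with Timp2. Timp1 is a secreted inhibitor, and Timp3 is held in the matrix and also inhibits ADAM proteases.

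Mmp3, Mmp8, Mmp12 and Mmp13 lie in a single cluster on chromosome 9, which also holds Mmp10, a second stromelysin that is no member. The 250 bases before the start of 5 genes of this cluster are shown because neighbours in it moved in different ways, as described further on. They are RefSeq windows on GRCm38.p6, all on the plus strand: Mmp3 at chr9:7445572-7445821, Mmp10 at chr9:7502092-7502341, Mmp13 at chr9:7272264-7272513, Mmp12 (the second of its 2 starts along the chromosome) at chr9:7347124-7347373 and Mmp8 at chr9:7558179-7558428. Capitals mark a match to the AP-1 motif, the site bound by Fos and Jun proteins and searched on both strands as TGANTCA.
Mmp3: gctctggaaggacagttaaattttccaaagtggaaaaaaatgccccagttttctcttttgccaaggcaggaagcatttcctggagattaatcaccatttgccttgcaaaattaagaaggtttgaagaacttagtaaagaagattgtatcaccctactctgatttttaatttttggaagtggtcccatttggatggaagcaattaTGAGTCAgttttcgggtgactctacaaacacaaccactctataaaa
Mmp10: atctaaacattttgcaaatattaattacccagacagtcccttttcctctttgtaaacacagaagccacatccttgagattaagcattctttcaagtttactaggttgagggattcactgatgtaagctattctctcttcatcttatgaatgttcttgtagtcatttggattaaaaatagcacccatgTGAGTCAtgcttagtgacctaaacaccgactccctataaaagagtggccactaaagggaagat
Mmp13: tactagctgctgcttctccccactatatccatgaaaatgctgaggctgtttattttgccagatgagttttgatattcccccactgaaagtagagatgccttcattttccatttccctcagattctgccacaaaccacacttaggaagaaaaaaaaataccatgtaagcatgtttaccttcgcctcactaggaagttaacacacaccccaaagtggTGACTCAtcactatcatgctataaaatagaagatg
Mmp12: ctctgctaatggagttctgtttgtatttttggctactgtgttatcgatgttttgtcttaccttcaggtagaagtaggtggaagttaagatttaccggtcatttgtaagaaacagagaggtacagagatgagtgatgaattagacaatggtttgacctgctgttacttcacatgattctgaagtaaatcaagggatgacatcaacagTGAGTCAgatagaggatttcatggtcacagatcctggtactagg
Mmp8: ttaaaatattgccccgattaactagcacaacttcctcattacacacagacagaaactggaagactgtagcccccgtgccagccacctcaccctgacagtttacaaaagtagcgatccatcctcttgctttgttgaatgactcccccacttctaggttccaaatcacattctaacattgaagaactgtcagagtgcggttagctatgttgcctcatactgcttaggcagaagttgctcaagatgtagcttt

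Windows were given for 8 of the 10 members, 9 in all since Mmp12 has 2, and 3 of the 9 held TGANTCA: Mmp3 at bases 46 to 40 before the start (TGAGTCA), Mmp12 at 44 to 38 (TGAGTCA) and Mmp13 at 35 to 29 (TGACTCA). Of 32851 mouse windows of this length, 6.75% held it. The Mmp10 window held it at bases 63 to 57, and the Mmp8 window and the other Mmp12 window held no match. The core of the antioxidant response element, at which Nrf2 binds, was searched on both strands as TGACNNNGC. It was found in 1 of 9 member windows and in 10.2% of all windows. The member window was that of Timp2, with the match at bases 152 to 144 on the strand opposite to the gene. TATAAA, the TATA box, was present in the Mmp3, Mmp13 and Mmp10 windows and in 12.4% of all, and AGGAAG, the PEA3 motif of ETS proteins, in 7 of 9 member windows and 29.5% of all. TGANTCA and TGACNNNGC can overlap, but did not in these windows. A match describes letters and not binding.

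Without Nrf2, most MMP probe sets read higher and most TIMP probe sets lower, the latter all of Timp2 and Timp3. Of 21 kept member probe sets, 18 were called in knockout against wild type, beside 29.1% of all kept probe sets; 9 were higher and 9 lower, beside 14.6% of all in each direction. The MMPs had 8 higher and 1 lower of 11, and the TIMPs 1 higher and 8 lower of 10. Groups did not overlap for 14 of the 21, beside 30.2% of all, and 4 were called with at least a 2-fold change, beside 4.85%. The median log2 change was 0.46 over MMP probe sets and -0.51 over TIMP probe sets, against 0.0026 over all kept probe sets. With 1 probe set per gene, 6 of 10 genes were higher, 2 lower and 2 not called. Counted this way, the MMPs had 5 higher, 1 lower and 1 not called of 7 genes. The TIMPs had 1 higher, 1 lower and 1 not called of 3 genes, so by this count most TIMP genes were not lower. The gene not called was Timp2, through 1460287_at, while its other kept probe sets were called lower.

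Mmp8, the collagenase best known from neutrophils, had the largest rise. It read 2101, 2115 and 2204 in wild type and 9270.2, 9366 and 8699 in knockout. All knockout arrays lay far above all wild-type arrays, and replicates within a group were close together. The means were 2139.9 ± 55.8 and 9112 ± 361 (SD, n = 3 each), a 4.26-fold rise (log2 change 2.09, SE 0.059, limma adjusted p = 2.1e-09), which ranked 61 from the highest of 22519 kept probe sets. Within set 2 the log2 change was 2.14 and within set 3 it was 1.98.

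Mmp12, the macrophage elastase, read 8066, 8289.9 and 9289 in wild type and 15824, 18371 and 15114 in knockout, again without overlap. Its means were 8548 ± 651 and 16436 ± 1713 (SD, n = 3 each), and it rose 1.92-fold (log2 change 0.94, SE 0.096, limma adjusted p = 2.5e-05). Mmp13, another collagenase of the cluster, read 3777, 3997 and 4733 in wild type and 5676, 6039 and 7386 in knockout. It rose 1.52-fold (0.61, SE 0.059, limma adjusted p = 1.7e-05), from 4169 ± 500.5 to 6367 ± 901 (SD, n = 3 each). All knockout arrays were above all wild-type arrays for both genes, and the set 3 array of Mmp13 was the highest in each group.

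Both gelatinases rose by less. Mmp2 (1416136_at) read 4196, 3932 and 3338 in wild type and 5436, 5646 and 4551 in knockout, a log2 change of 0.45 (SE 0.065, limma adjusted p = 3.5e-04). Its other probe set, 1439364_a_at, rose by 0.46 (limma adjusted p = 1.3e-04), and neither overlapped between groups. Both calls were lost with the replicate number as a block (limma adjusted p = 0.10 and 0.054). Mmp9 (1416298_at) read 1255, 1211 and 1224 in wild type and 1479.9, 1888 and 1794 in knockout, a log2 change of 0.48 (SE 0.090, limma adjusted p = 0.0022). The groups were apart, with the knockout arrays the more spread. The other Mmp9 probe set, 1448291_at, rose by 0.47 (limma adjusted p = 0.0093); without wild-type replicate 5 the adjusted p was 0.056, without knockout replicate 4 it was 0.059, and within set 2 alone 0.10.

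Mmp3, the stromelysin, was not called. It read 2806, 2987 and 3461 in wild type and 3389, 2429 and 4011 in knockout, and the knockout arrays lay on both sides of the wild-type arrays. The log2 change was 0.06, with a 95% interval of -0.27 to 0.40 (limma adjusted p = 0.80), which leaves room for a moderate change either way.

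The 3 probe sets of Mmp14, the membrane-bound activator of pro-Mmp2, disagreed. Probe set 1448383_at read 7072, 7204 and 5447 in wild type and 5600.4, 5937 and 4522 in knockout, so the groups overlapped unless arrays of the same set were compared. With the set in the model it fell by 0.29 on the log2 scale (limma adjusted p = 0.0038), and without that term the adjusted p was 0.34. Probe set 1440920_at went the other way, from 983, 938 and 1076 to 1346, 1215 and 1261, a log2 change of 0.35 (limma adjusted p = 0.0072). Probe set 1416572_at had a log2 change of -0.18 and was not called (limma adjusted p = 0.12; without knockout replicate 3 it was 0.029). No single direction can be given for Mmp14 from these values.

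Among the inhibitors, Timp3 fell on all 4 of its probe sets. Its brightest, 1449335_at, read 10514, 10166 and 11006 in wild type and 5068, 5259.5 and 5616 in knockout. The knockout arrays were all far below the wild-type arrays. The means were 10562 ± 422 and 5314 ± 279 (SD, n = 3 each), and the fall was 1.99-fold (log2 change -0.99, SE 0.057, limma adjusted p = 2.8e-07). The other 3 probe sets fell by more, with log2 changes of -1.29 (1419089_at), -1.55 (1419088_at) and -1.61 (1449334_at, 3.04-fold lower). Timp3 lies on chromosome 10 inside the span of Syn3, Timp1 on chromosome X inside that of Syn1, and Mmp8 inside that of Gm31751, so signals of these overlapping genes may be mixed where a probe set does not tell the strands or exons apart.

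Timp2 had 5 kept probe sets, of which 4 fell. The largest fall was at 1420924_at, which read 2948, 2941 and 1438 in wild type and 2017, 1808 and 942 in knockout. Its log2 change was -0.62 (SE 0.080, limma adjusted p = 1.5e-04, and 0.33 without the set term). In both groups the set 3 array was lowest by a wide margin, and the groups overlapped. Probe sets 1433662_s_at and 1450040_at had log2 changes of -0.40 and -0.38. The call of 1454677_at (log2 change -0.23, limma adjusted p = 0.029) was lost when any of wild-type replicates 3, 4 or 5 or knockout replicates 2 or 3 was left out, with adjusted p from 0.070 to 0.10 in those fits. The brightest, 1460287_at, had a log2 change of -0.05 and was not called (limma adjusted p = 0.68), but after quantile normalization it was called lower (-0.17, limma adjusted p = 0.028).

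Timp1 was the only inhibitor called higher. It read 16590.2, 16311 and 14222 in wild type and 20755, 25371 and 16093 in knockout, so the lowest knockout array lay below 2 of the wild-type arrays. The log2 change was 0.38 (SE 0.091, limma adjusted p = 0.0093), 0.48 within set 2 and 0.18 within set 3. After quantile normalization it was 0.05 (limma adjusted p = 0.45), so the rise of Timp1 depended on how arrays were scaled.

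**Figure D1:**
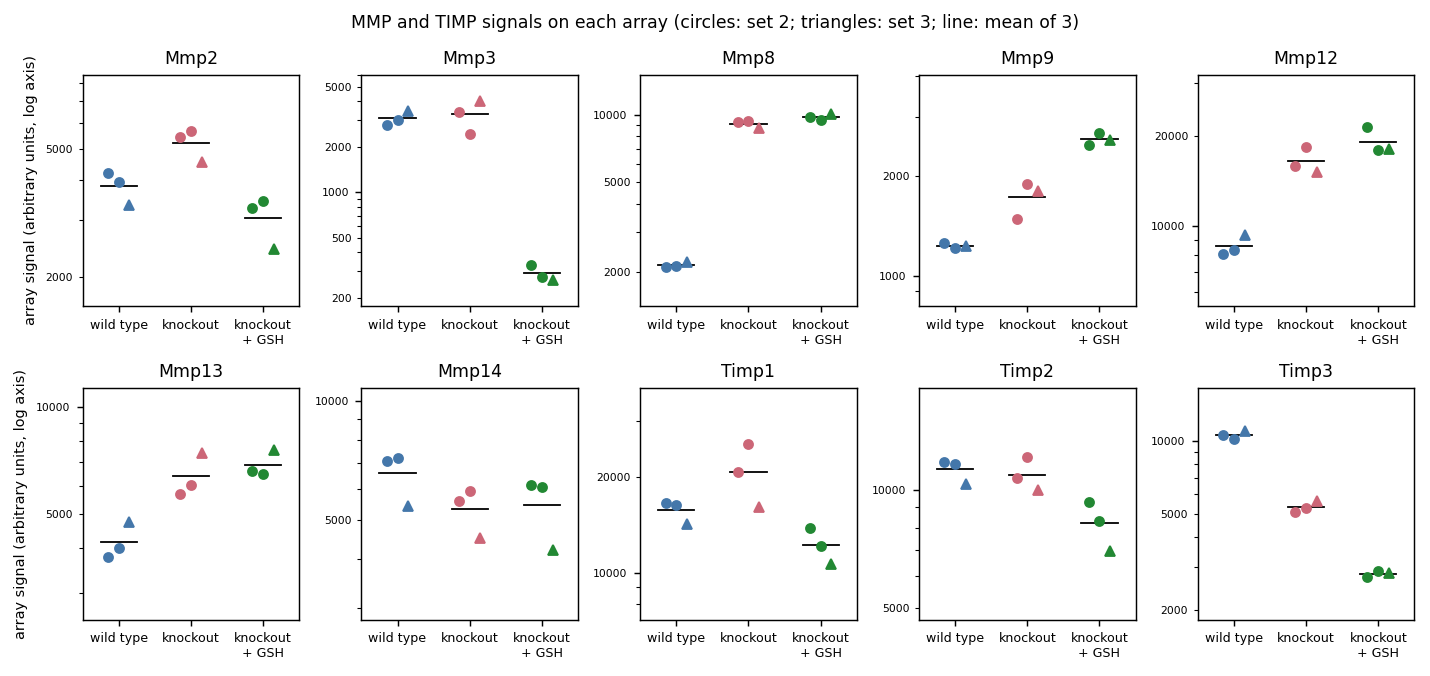
Signals of the member genes on each of the 9 arrays, with the brightest probe set standing for each gene, on a log axis in arbitrary units; circles are set 2 arrays, triangles set 3 arrays and lines means of 3. Mmp8 and Mmp12 sit higher in both knockout groups than in wild type, Mmp3 sits low in knockout with GSH alone, and Timp3 steps down from wild type to knockout to knockout with GSH.

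Markers of other cell types moved in the same comparison. Counts are of called genes, and of all kept probe sets 14.6% were called in each direction. Of 16 macrophage markers, 14 rose and 2 fell (median log2 change 0.80), and their summed signal went from 51283 to 53961 in wild type to 80526 to 100076 in knockout. The 4 kept neutrophil markers of 9 summed to 1687 to 2160 in wild type and 5272 to 8009 in knockout, mostly through S100a8 (mean 1421 and 6028), while S100a9, a defining neutrophil gene, lay at or below the control probe sets on every array. Of 11 fibroblast markers, 8 rose and 1 fell (median 0.47; sums 57242 to 59804 and 73977 to 99309), and of 8 kept epithelial markers 8 fell (median -1.78; sums 52619 to 53211 and 15042 to 16083). All 5 mesothelial markers fell (median -1.87), as did 6 of 8 kept type I markers (median -0.34) and 2 of 7 endothelial markers, with 0 rising in either list. Type II markers had 2 higher and 1 lower of 8 (median 0.015; sums 5080.0 to 6087 and 5513 to 6208). The 2 higher were Cd74 (0.87) and Napsa (1.13), and the 1 lower was Sftpd (-1.06). Fewer cells of a type and less RNA per cell cannot be told apart in such bulk samples, and the part of these cell types in the MMP and TIMP values was not tested.

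**Figure D2:**
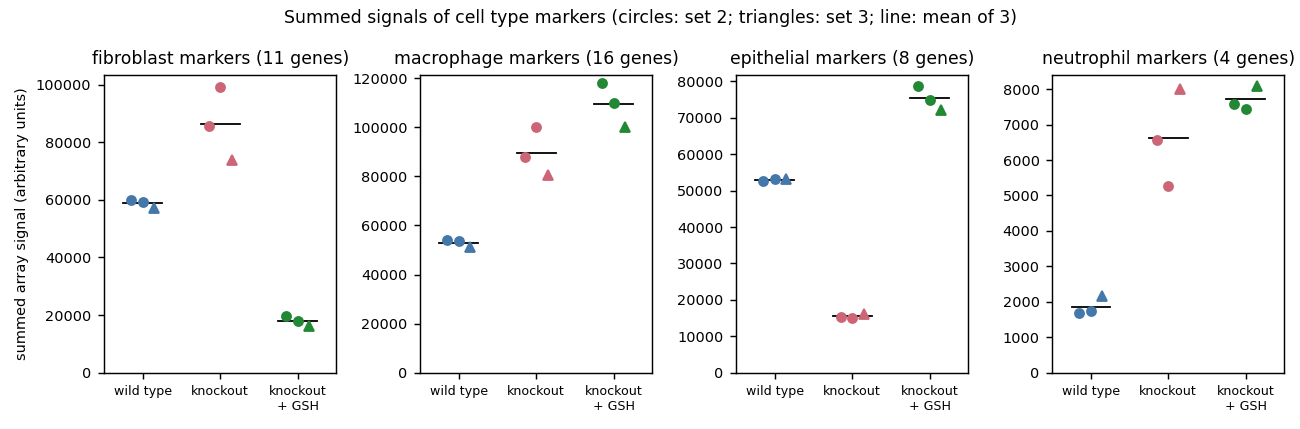
Summed signal of the kept markers of each cell type on each array, in arbitrary units on a linear axis from 0, for fibroblast, macrophage, epithelial and neutrophil markers (circles: set 2; triangles: set 3; lines: means of 3). The epithelial sum is lowest in knockout (15042 to 16083) and the fibroblast sum lowest in knockout with GSH (16219 to 19626), while the macrophage sum is lowest in wild type (51283 to 53961).

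Knockout cells labelled with GSH were next set against knockout cells, a comparison within 1 genotype, in which the ranges of Xist and Eif2s3y overlapped. It shares the knockout arrays with the comparison above. Called members mostly fell here, 8 of the 12 falls being of TIMP probe sets, and Mmp3 fell by far the most. Of the 21 kept probe sets 14 were called, beside 35.4% of all kept probe sets; 2 were higher, beside 18.4% of all, and 12 lower, beside 17.0%. Groups did not overlap for 12 of 21, beside 33.6% of all, and 2 were called with at least a 2-fold change, beside 8.3%. The MMPs had 2 higher and 4 lower of 11, and the TIMPs 8 lower and 0 higher of 10. The median log2 change was -0.42 over all members, 0.05 over MMP probe sets and -0.60 over TIMP probe sets, against 0.041 over all kept probe sets.

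Mmp3 read 3389, 2429 and 4011 in knockout and 333, 274 and 264 with GSH. Every array with GSH was far below every knockout array. The means were 3276 ± 797 and 290.4 ± 37.2 (SD, n = 3 each), an 11.1-fold fall (log2 change -3.47, SE 0.15, limma adjusted p = 1.3e-08), which ranked 39 from the lowest of 22519 probe sets. The signal stayed above the control probe sets on 3 of 3 arrays with GSH.

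The gelatinases moved in opposite directions. Mmp2 (1416136_at) read 5436, 5646 and 4551 in knockout and 3281, 3446 and 2438 with GSH, without overlap, and fell by 0.78 on the log2 scale (SE 0.065, limma adjusted p = 2.6e-06). Its other probe set fell by 0.98 (SE 0.058, limma adjusted p = 1.7e-07). Mmp9 (1416298_at) read 1479.9, 1888 and 1794 in knockout and 2477, 2694 and 2564 with GSH, a log2 change of 0.59 (SE 0.090, limma adjusted p = 3.2e-04), and its other probe set rose by 0.54 (SE 0.11, limma adjusted p = 0.0032). Both Mmp9 probe sets were above every knockout array on every array with GSH, which were the only 2 member probe sets called higher.

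The collagenases and the elastase, all of which differed between knockout and wild type, were not called here. Mmp8 read 9744, 9461 and 10046 with GSH, just above the knockout arrays, and the 95% interval of the log2 change was -0.03 to 0.23 (estimate 0.10, limma adjusted p = 0.23). For Mmp13, at 6579, 6464 and 7533 with GSH, the interval was -0.02 to 0.24 (limma adjusted p = 0.16). Mmp12 read 21377, 17872 and 18106 with GSH, and its log2 change of 0.22 missed the threshold (limma adjusted p = 0.10) but passed it after quantile normalization (0.0015) and without knockout replicate 3 (0.029). These intervals leave room for small changes and do not show that there was none.

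Mmp14 was again divided. Probe set 1440920_at read 986, 897 and 976 with GSH, below every knockout array, and fell by 0.42 on the log2 scale (limma adjusted p = 0.0018). Probe sets 1448383_at and 1416572_at had log2 changes of 0.02 and 0.05 and were not called.

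All 3 TIMP genes were lower with GSH. Timp3 (1449335_at) read 2738, 2894 and 2842 with GSH against 5068, 5259.5 and 5616 in knockout, with no overlap, a 1.88-fold fall (log2 change -0.91, SE 0.057, limma adjusted p = 2.7e-07). The other Timp3 probe sets had log2 changes of -0.95, -0.74 and -1.06. The second of these, 1419088_at, overlapped between groups, at 3207, 3872.5 and 1650 in knockout and 1967.5, 1916 and 1166 with GSH. Timp1 read 13799.8, 12152 and 10679 with GSH, all below the lowest knockout array of 16093, and fell by 0.75 (SE 0.091, limma adjusted p = 6.1e-05). Timp2 fell on 3 of 5 probe sets: 1460287_at, at 9306, 8327 and 6983 with GSH, by 0.42 (limma adjusted p = 7.5e-04), 1450040_at by 0.46 and 1433662_s_at by 0.26. The last call (limma adjusted p = 0.020) was lost with the replicate number as a block (0.15) and without knockout replicate 2 (0.069), knockout replicate 3 (0.064) or GSH replicate 3 (0.069). Probe set 1420924_at was not called (log2 change -0.20, limma adjusted p = 0.073; without GSH replicate 4 it was 0.017), nor was 1454677_at.

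**Figure D3:**
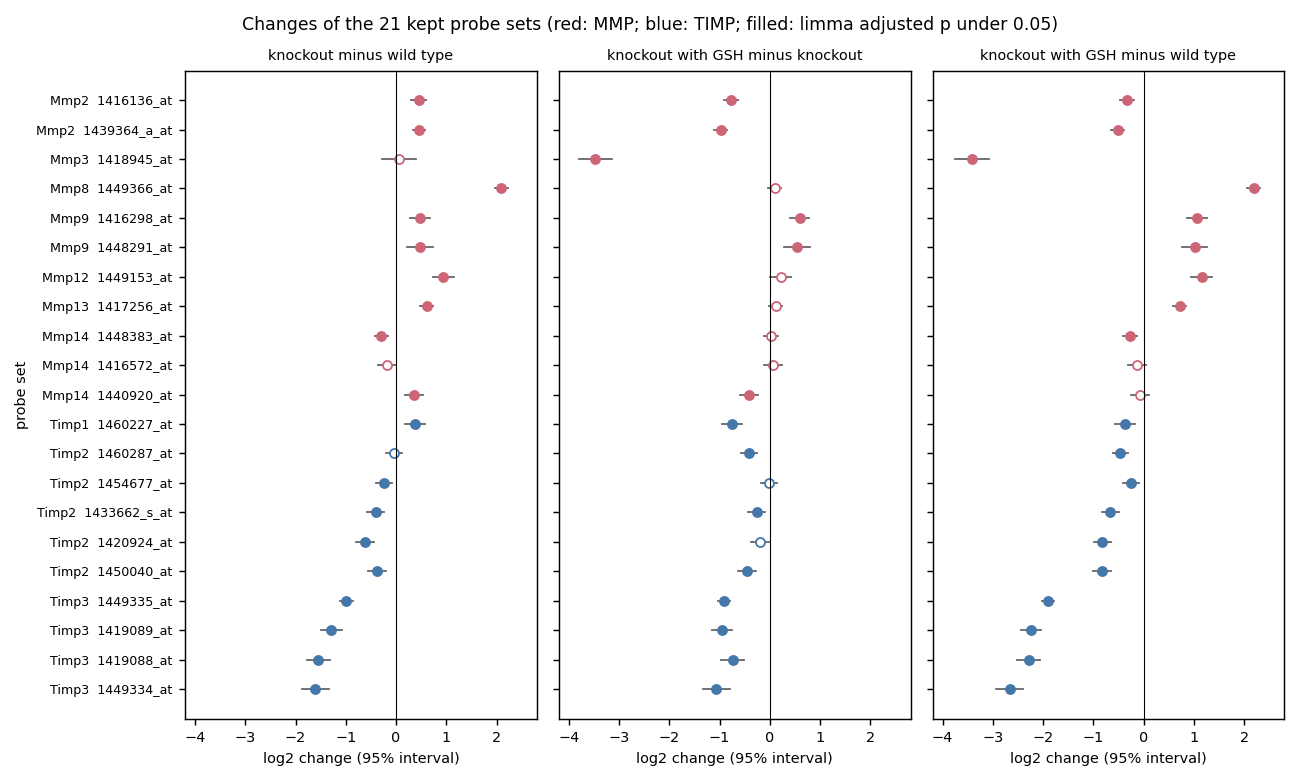
Log2 change of each kept member probe set with its 95% interval from limma, for knockout minus wild type, knockout with GSH minus knockout, and knockout with GSH minus wild type; red marks MMPs, blue TIMPs, and filled points a limma adjusted p under 0.05. Mmp8 is at 2.09 in the first comparison and 0.10 in the second, Mmp3 at 0.06 and -3.47, and all 4 Timp3 probe sets are below 0 in each comparison.

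Marker lists again moved alongside, and of all kept probe sets 18.4% were called higher and 17.0% lower. All 11 fibroblast markers fell with GSH (median log2 change -2.93), and their summed signal went from 73977 to 99309 in knockout to 16219 to 19626. All 8 kept epithelial markers rose (median 2.33), with sums of 15042 to 16083 and 72215 to 78698. Of 16 macrophage markers, 7 rose and 2 fell (median 0.22), with sums of 80526 to 100076 and 100285 to 118190. Mesothelial markers had 4 lower of 5, while Msln rose (2.91). Of the 4 kept neutrophil markers, 2 rose, Csf3r (0.55) and Ngp (0.56), and 0 fell. Type II markers had 5 higher and 0 lower of 8 (median 0.65; sums 5513 to 6208 and 9343 to 10474), type I markers 3 higher and 0 lower of 8, and endothelial markers 1 higher and 1 lower of 7. The type II sums include Cd74, which went from a mean of 769 to 2857, and Napsa, from 415 to 1029.5. The part of these cell types in the fall of Mmp3, Mmp2 and the TIMPs and in the rise of Mmp9 was not tested.

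Knockout with GSH was also set against wild type; this comparison shares arrays with both others and its values are not independent of them. Of 21 kept member probe sets 19 were called, beside 44.7% of all; 5 were higher, beside 22.5%, and 14 lower, beside 22.3%, and groups did not overlap for 16, beside 43.4%. All 10 TIMP probe sets were lower, and the MMPs had 5 higher and 4 lower of 11. By gene, 4 were higher (Mmp8, Mmp9, Mmp12 and Mmp13) and 6 lower (Mmp2, Mmp3, Mmp14, Timp1, Timp2 and Timp3). Mmp14 counts as lower through 1448383_at, which stands for the gene; 1416572_at (log2 change -0.13, limma adjusted p = 0.23) and 1440920_at (-0.07, limma adjusted p = 0.53) were not called.

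The largest difference was that of Mmp3, at 10.6-fold lower (log2 change -3.41, limma adjusted p = 1.2e-08). Timp3 ran from 3.74-fold lower at 1449335_at to 6.36-fold lower at 1449334_at (log2 change -2.67, limma adjusted p = 1.7e-08). The 3 groups of Timp3 arrays were fully apart on 1449335_at, with wild type highest and knockout with GSH lowest. Mmp8 was 4.56-fold higher than in wild type (2.19, limma adjusted p = 7.1e-10), Mmp12 2.23-fold (1.16, limma adjusted p = 1.8e-06), Mmp9 2.10-fold (1.07 at 1416298_at, limma adjusted p = 2.1e-06) and Mmp13 1.65-fold (0.72, limma adjusted p = 1.7e-06). Mmp2, higher than wild type in knockout, was lower than wild type with GSH, by 0.33 and 0.52 on the log2 scale at its 2 probe sets (limma adjusted p = 0.0014 and 2.2e-05). Timp1 was lower by 0.37 (limma adjusted p = 0.0066), and Mmp14 fell by 0.27 at 1448383_at (limma adjusted p = 0.0033), a call lost without the set term (0.29). The call of Timp2 1454677_at (log2 change -0.25, limma adjusted p = 0.016) was lost without wild-type replicate 3 (0.053), wild-type replicate 5 (0.061) or GSH replicate 4 (log2 change -0.16, 0.10).

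In this comparison 15 of 16 macrophage markers were higher and 0 lower (median log2 change 1.24), 11 of 11 fibroblast markers lower, 8 of 8 epithelial markers higher (median 0.50) and 4 of 5 mesothelial markers lower (median -3.14). Also lower were 7 of 7 endothelial markers (median -0.63) and 4 of 8 type I markers, with 1 type I marker higher. Type II markers had 4 higher and 0 lower of 8, among the higher Cd74 (2.77) and Napsa (2.43). The mesothelial marker Msln was higher (log2 change 0.31). Neutrophil markers had 2 higher and 0 lower of 4 kept, S100a8 (2.32) and Csf3r (1.46). Of all kept probe sets 22.5% were called higher and 22.3% lower. The part of these cell types in the member values was not tested.

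Probe sets of 1 gene were not always alike. For Timp3 all 4 fell in each comparison, but the knockout change ran from -0.99 to -1.61 on the log2 scale. Set 3 was lowest in all 3 groups for 12 of 21 member probe sets (57.1%), against 24.9% of all kept probe sets, and highest in all groups for 1 (Mmp13, 4.76%), against 21.9%. The gap was widest on probe sets such as Mmp14 1416572_at, where set 2 read 4467 and 4546 in wild type and set 3 read 2076. Each group holds both sets in the same numbers, so these gaps add spread but do not shift one group against another. Without a set term that spread ended several calls: in knockout against wild type those of Mmp2 1416136_at (limma adjusted p = 0.086), Mmp9 1448291_at (0.076), Timp1 (0.17) and 4 Timp2 probe sets (0.12 to 0.33). With GSH against knockout it ended those of Timp2 1433662_s_at (0.28) and 1450040_at (0.14) and of Timp3 1419088_at (0.15), and with GSH against wild type those of Mmp2 1416136_at (0.13), Timp1 (0.12) and Timp2 1420924_at (0.12) and 1454677_at (0.069). The calls of Mmp3, Mmp8, Mmp12, Mmp13 and the other 3 Timp3 probe sets were kept.

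**Figure D4:**
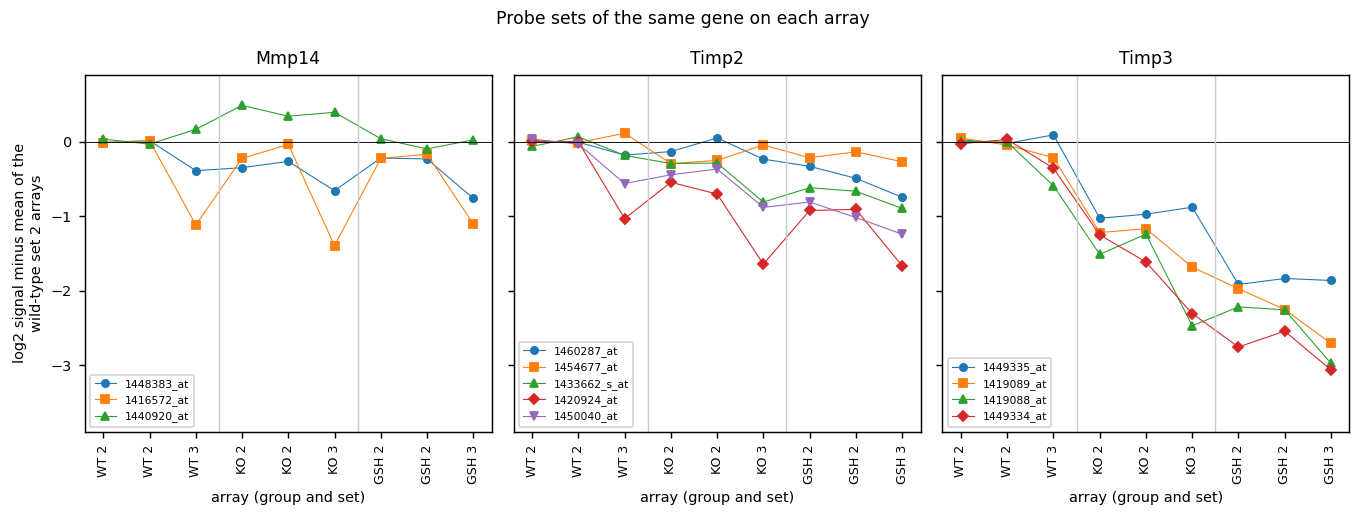
Log2 signal minus the mean of the wild-type set 2 arrays, for each kept probe set of Mmp14, Timp2 and Timp3, on the 9 arrays in order of group and set (the number after each group). By mean, all 4 Timp3 probe sets lie lower in knockout and lower still with GSH. The knockout and GSH arrays of Timp3 1419088_at overlap. The 3 Mmp14 probe sets differ in direction, and Mmp14 1416572_at and Timp2 1420924_at dip on the set 3 array of each group.

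The genes of the chromosome 9 cluster, whose promoters are printed above, did not move as a block. In the RefSeq gene table the order was Mmp13, Mmp12, Mmp1b, Mmp3, Mmp1a, Mmp10, Mmp8, Mmp27, Mmp20 and Mmp7; these were all 10 protein-coding genes of the stretch, and 5 of them had a kept probe set. Mmp10, a stromelysin with only Mmp1a between it and Mmp3 in that order, had 3 groups of arrays that were fully apart. The arrays read 1766, 1667 and 1736 in wild type, 2832, 3094 and 2697 in knockout and 423, 322 and 259 with GSH. The log2 change of Mmp10 was 0.74 in knockout (limma adjusted p = 0.0011) and -3.13 with GSH against knockout (8.74-fold lower, limma adjusted p = 6.2e-09). The stromelysins Mmp3 and Mmp10 were thus the only cluster genes of the 5 called lower with GSH against knockout, at -3.47 and -3.13, while Mmp13, Mmp12 and Mmp8, which flank them, stood at 0.11, 0.22 and 0.10. In knockout against wild type Mmp13, Mmp12, Mmp10 and Mmp8 were higher and Mmp3 was not called. TGANTCA was present in the windows of Mmp3 and Mmp10 and in those of Mmp13 and Mmp12.

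**Figure D5:**
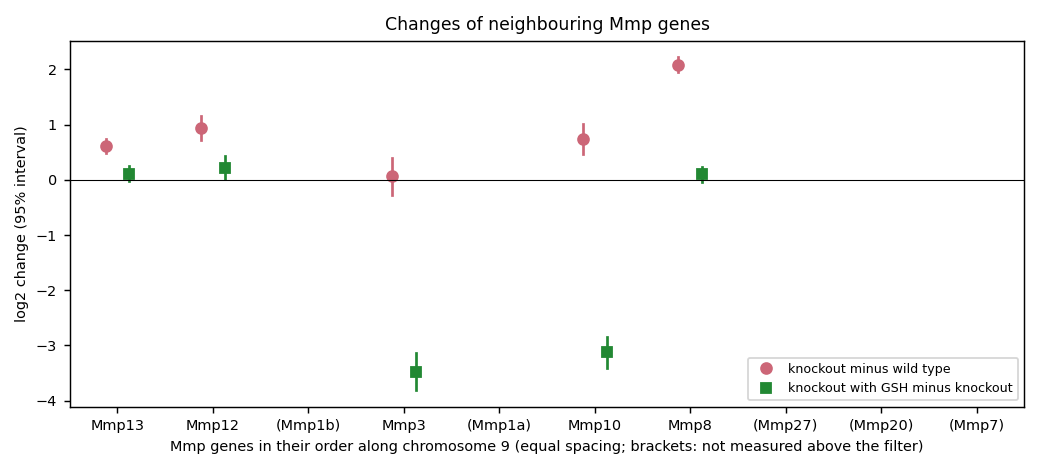
Log2 change with 95% limma intervals of the 5 measured MMP genes of the chromosome 9 cluster, drawn at equal spacing in their order along the chromosome (names in brackets had no kept probe set), for knockout minus wild type (circles) and knockout with GSH minus knockout (squares). Mmp3 (-3.47) and Mmp10 (-3.13) lie far below 0 in knockout with GSH minus knockout, between Mmp12 (0.22) and Mmp8 (0.10).

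Other MMPs and TIMPs numbered 12 on the array, of which 7 genes were kept. In knockout against wild type 1 was called, Mmp10, beside 29.1% of all kept probe sets. With 1 probe set per gene, 4 fell and 0 rose with GSH against knockout, beside 17.0% lower and 18.4% higher of all kept probe sets (median log2 change -0.77): Mmp10, Mmp23 (-1.51, limma adjusted p = 1.2e-05), Mmp17 (-1.06, limma adjusted p = 0.0020) and Mmp16 (-0.77, limma adjusted p = 0.0033). Second kept probe sets gave other values: Mmp16 was at -2.12 (limma adjusted p = 1.6e-05), and that of Mmp23 went from a mean of 313 to a level at or below the control probe sets on every array with GSH. Mmp19, not called on the probe set that stands for it (-0.52, limma adjusted p = 0.079), was called lower on its other (-0.71, limma adjusted p = 0.021). Mmp1a, Mmp1b, Mmp7, Mmp20 and Timp4 were below the filter. Against wild type, 0 rose and 4 fell with GSH, beside 22.5% higher and 22.3% lower of all kept probe sets.

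Genes that activate, bind or restrain MMPs moved in both directions. Of 17 kept, 6 rose and 7 fell in knockout, beside 14.6% of all kept probe sets each way, where the matriptase St14 (-1.09) and its inhibitors Spint1 (-1.04) and Spint2 (-1.01) had the smallest p. With GSH against knockout 6 rose and 7 fell, beside 18.4% and 17.0% of all, led by Tfpi2, a Kunitz-type protease inhibitor (-2.10), Spint1 (1.63) and Spint2 (1.72). The summed epithelial markers given above were low in knockout and high with GSH, and their part in the Spint1, Spint2 and St14 values was not tested. In the plasminogen system, whose protease plasmin can activate MMP precursors, 5 genes were kept: the urokinase receptor Plaur fell in knockout (-0.51) and rose with GSH (0.61), Serpinb2 rose in both (0.32 and 0.41), and the activator Plat fell in both (-0.84 and -1.05).

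ADAM and ADAMTS proteases, some of which Timp3 inhibits, had 8 higher and 1 lower of 15 in knockout (median log2 change 0.38), beside the same 14.6% each way, led by Adam8 (0.93), Adam17 (0.88) and Adamts9 (1.83). With GSH against knockout 3 rose and 9 fell (median -1.05), beside 18.4% and 17.0%, led by Adamts1 (-2.44), Adamts5 (-1.92) and Adamts9 (-3.30). Of 12 matrix genes whose products MMPs cut, 9 rose and 2 fell in knockout (median 0.38), beside 14.6% each way, with the proteoglycans Vcan at 1.03 and Dcn at 0.94 and the basement membrane laminin Lamb3 at -1.82. With GSH 2 rose and 9 fell (median -1.71), beside 18.4% and 17.0%, with Col3a1 at -3.52, Dcn at -2.93 and Vcan at -2.71. Col1a1, Col1a2, Col3a1 and Dcn stand in this list and among the fibroblast markers, so the lists are not separate. Of 7 AP-1 subunits, Fos rose (1.23) and Fosl1 fell (-0.95) in knockout, beside 14.6% each way. With GSH against knockout Junb alone was called (0.39), beside 18.4% higher and 17.0% lower.

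For members with a called change of at least 1 on the log2 scale, the genes with the most similar pattern were taken as those with the smallest root mean square difference of centred log2 signals over the 9 arrays, among 11619 genes. For Mmp3 they were Prrx1 (0.24), Nid2 (0.29) and C1s1 (0.29), and only 1 gene lay within 0.25. For Mmp8 they were Ms4a6b (0.12), Slamf9 (0.13) and Dhx58 (0.16). Mmp12 was nearest to Lcp1 (0.084), Cd14 (0.093) and Gcnt1 (0.10), and Mmp9 to Pf4 (0.081), Clmp and Rbm47 (0.083 each). Timp3 was nearest to Has2 (0.10), Fbln5 (0.11) and Slc2a3 (0.12). Many genes share the patterns of Mmp9 and Mmp12, with 505 and 250 within 0.25, against 22 for Mmp8 and 32 for Timp3.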

How the data were processed

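RNA was hybridised to 9 Affymetrix mouse arrays, 3 per group. The authors deposited 1 linear intensity per probe set and array, and each array was taken as scaled to a common trimmed mean. The values given here do not test that scaling, and no source used here names the software that summarised probes. Of 45101 probe sets, 64 controls were left out, 2 values of 0 were set to 0.1, and log2 intensities were used without further normalization. Probe sets under the median of the mean log2 (a geometric mean of 116) were left out, which kept 22519. Median signals were 101.6 to 142.6, and the number of arrays limits precision. A control level, the 95th percentile of bacterial control probe sets, ran from 43.4 to 82.9 by array.

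limma 3.58.1 in R 4.3.3 fitted group and set over all 9 arrays with eBayes and a mean-variance trend (residual df 5, prior df 6.08), and Benjamini-Hochberg adjustment ran over all kept probe sets. The fit was tested on simulated data. Symbols came from the platform annotation (34945 probe sets with 1 symbol, 932 with several, 9160 with none), and all 10 members matched RefSeq identifiers. Members, lists and tests were chosen with earlier results of these data known. All member probe sets are named, the 3 genes of each list with the smallest p among those called, MMPs outside the members with a called probe set, and the 3 nearest genes; counts by gene use the probe set with the highest mean. Replicate numbers 2, 3 and 4 occur in both knockout groups. Their deviations from group means correlated at 0.32, 0.29 and 0.67 for the same number. Crossed pairs within set 2 gave 0.24 and 0.39, so number and set are not told apart. The main fit held no term for pairs, and the replicate number was a block in an alternative only. Alternatives were no set term, a replicate block, fits of 2 groups, quantile normalization, other filters, log2(intensity + 32), set 2 alone, each array left out, and a rule after the series design text (at least 6 of 9 array pairs and the mean at 1.5-fold, with unadjusted p under 0.05).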

Additional observations from a re-analysis of the deposited data

Results flagged for a closer look

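Set 3 moved one way and set 2 the other for several kept member probe sets. The difference between sets was not tested, and set 3 holds 1 array per group. For Mmp14 1448383_at, knockout with GSH minus knockout was -0.10 on the log2 scale in set 3 and 0.08 in set 2. For Timp2 1454677_at the same comparison gave -0.23 in set 3 and 0.10 in set 2. For Mmp14 1416572_at, knockout with GSH minus wild type was 0.014 in set 3 and -0.20 in set 2. On the same probe set, knockout with GSH minus knockout was 0.29 in set 3 and -0.066 in set 2. For Mmp3, knockout minus wild type was 0.21 in set 3 and -0.013 in set 2.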

How the results depend on the processing

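Each kept member probe set was refitted under every alternative except the rule after the design text, which is counted separately below. Of 1071 such values 1012 kept direction and call, 41 lost the call, 6 gained it and 12 reversed. None of the reversed values was called on either side. Without the set term, member probe sets called lower went from 9 to 4 in knockout against wild type and from 14 to 9 in GSH against wild type, and all calls in the 3 comparisons from 6560, 7964 and 10074 to 2774, 4574 and 6181. With the replicate block, members called higher in knockout went from 9 to 4, and all calls against wild type to 3253 (knockout) and 6586 (GSH). Lost were both Mmp2 probe sets (limma adjusted p = 0.10 and 0.054), Mmp9 1448291_at (0.085), Mmp14 1440920_at (0.058) and Timp1 (0.28). Wild type shares only numbers 3 and 4 with the other groups, and these do not pair. For GSH against knockout, whose arrays carry the same replicate numbers, the block changed the call of Timp2 1433662_s_at and of no other member. Under the rule after the design text, members called in knockout were 3 higher and 4 lower, beside 9 and 9 by limma. With GSH against knockout they were 0 higher and 8 lower, beside 2 and 12. With GSH against wild type they were 5 higher and 8 lower, beside 5 and 14. Calls in all were 2291, 3435 and 4539, and unadjusted p is part of that rule.

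Reversals were of small values. Set 2 alone gave -0.013 for Mmp3 in knockout, and for GSH minus knockout -0.066 for Mmp14 1416572_at and 0.096 for Timp2 1454677_at. Leaving out each array gave -0.089 to 0.25 for Mmp3 and -0.088 to 0.011 for Timp2 1460287_at in knockout, and for GSH minus knockout -0.042 to 0.14 for Mmp14 1416572_at, -0.017 to 0.075 for Mmp14 1448383_at and -0.065 to 0.077 for Timp2 1454677_at. The causes were not tested. The 3 arrays per group and an unexplained set number limit every comparison, and the sex genes those with wild type.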
